A study of Mus musculus with 2 samples.

Results

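Plasma cells, the antibody-secreting end stage of the B cell lineage, were examined in kidney cell preparations of lupus-prone MRL-lpr mice. A cell was counted as a plasma cell when it held at least 5 UMIs (unique molecular identifiers, each standing for 1 captured transcript) of Jchain, the joining chain of secreted IgA and IgM, and at least 2 UMIs of Mzb1, a helper of antibody assembly in the endoplasmic reticulum (ER), with 0 UMIs of Siglech, Cd3d and Cd3e. Of 21661 cells that passed the quality limits in both libraries, 75 met this rule, 7 in the young and 68 in the old library. Because the rule read Jchain and Mzb1 in the same cells, the levels of these genes and the size of the population are a description and were not tested.

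A plasma cell switches off much of the B cell program and gives its protein synthesis over to 1 antibody, with a heavy chain whose constant gene sets the class (IgM, IgG subclasses or IgA) and a kappa or lambda light chain. The ER is enlarged to fold this cargo, under the transcription factors Xbp1 and Prdm1 (Blimp-1). In lupus nephritis, autoantibodies deposit in the glomeruli, and antibody-secreting cells are also found in inflamed kidneys themselves, whereas IgA plasma cells are typical of mucosal tissue.

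The study asked how innate lymphoid cells change in lupus nephritis, and its scRNA-seq part compared pooled MRL-lpr kidneys of the 2 ages, old and young, in 1 library each. Both groups carried the Fas lpr mutation on the MRL background, so no healthy strain was included, and the number of pooled kidneys was not given in the labels. Leukocytes were concentrated on a density gradient, passed through a mouse pan-ILC enrichment kit and sorted as live cells, so every share below describes the enriched preparation and not the kidney. With 1 library per age, differences between ages had no replicate check and no p-value was computed, and age, library and the animals pooled cannot be told apart.

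The young and old libraries held 156787812 and 126334256 UMIs over 15076 and 12622 barcodes, of which 11429 and 10232 passed the quality limits (200 genes or more, mitochondrial UMIs up to 20%), with medians of 7881 and 6933 UMIs. The libraries shared 41 barcodes, none of them a plasma cell. Of the plasma cells, 5 of 7 young and 39 of 68 old ones carried Y-linked UMIs and no Xist, although the methods of the study describe female animals. Another 1 young and 13 old cells carried Xist alone, and the part of this in any result was not tested beyond the alternatives given at the end.

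The label held for most members against markers the rule had not used. Sdc1 (CD138, a surface proteoglycan of plasma cells) was detected in 7 of 7 young and 58 of 68 old cells, Xbp1 in 6 and 68, Prdm1 in 7 and 48, and Irf4, which drives the switch from B cell to plasma cell, in 6 and 45. Ms4a1 (CD20), a B cell surface gene, had 0 UMIs in the young cells and 62 UMIs in 16 of the old cells. Some members went against the label. An old cell with 1.14% immunoglobulin (antibody) transcripts held 16 Ms4a1 UMIs. Another, with 2.47%, held 6 Ms4a1 UMIs, had UMIs of 4 neutrophil genes and was called a doublet. Both were kept in all counts below. Young cells held from 208 through a median of 1179 to 3277 Jchain UMIs and old cells from 15 through 1281.5 to 5972. Mzb1 ranged from 24 through 55 to 92 and from 2 through 59.5 to 300 UMIs. Most members thus stood far inside the limits. The 2 old cells lowest in Jchain, with 15 to 19 UMIs, stood at the Mzb1 limit of 2 UMIs. Old cells with 54 and 1509 Jchain UMIs also stood at that limit. Just outside were 1 old cell with 3 Jchain UMIs beside Mzb1 and 7 old cells with enough Jchain but under 2 Mzb1 UMIs. A further 22 old cells and 1 young cell passed both minima but carried a UMI of Siglech, Cd3d or Cd3e, and the 22 old cells had a median of 997.5 Jchain UMIs.

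Plasma cells held more RNA than B cells, whose median was 3994 UMIs in the young and 6328.5 in the old library. The 7 young cells held from 7232 through a median of 23333 to 36241 UMIs and the 68 old cells from 2076 through 38659 to 96781. Immunoglobulin transcripts made up 53.8% of all plasma cell UMIs in the young and 60.7% in the old library, against 1.38% and 2.87% in B cells (at least 2 Cd79a and 1 Ms4a1 UMIs). In single old plasma cells this share ran from 1.14% through 64.2% to 82.5%, and 4 old cells and 1 young cell lay under 25%. For this reason immunoglobulin UMIs were left out of the total to which expression is scaled below. CPM, counts per 1000000 of the remaining UMIs, was computed for each group of cells as a whole and, where stated, for single cells.

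Transcripts of other cell types were present in some members. Scrublet, a doublet caller, marked 6 of the 7 young plasma cells but 1 of the 68 old ones, and 3 young and 16 old cells held genes of the proximal tubule (at least 3 of 8 listed genes with 2 or more UMIs). The summed tubule list stood at 6190 CPM in young and 5231 CPM in old plasma cells, below the 20441 and 6780 CPM of B cells, and all 8 genes had UMIs in each of these groups. Cells with a UMI of Cd3d or Cd3e had been left out by the rule, which limits what the T cell list can show. T cell, NK and endothelial lists had 0 UMIs in young plasma cells and 20, 15 and 9 UMIs in old ones. Other lists were not at 0 in the young cells. Plasmacytoid dendritic genes had 51 UMIs in young and 656 in old plasma cells, found in 7 of 7 and 60 of 68 cells, although the rule set Siglech of that list to 0. Macrophage or monocyte genes had 3 and 255 UMIs, type 2 innate lymphoid cell genes 3 and 81, and erythrocyte genes 1 and 1. Neutrophil genes had 0 and 1103 UMIs, and 81.0% of the 725 S100a9 UMIs lay in 1 old cell. All these cells were kept. In the comparisons between ages and classes, values of named genes without the 4 young and 19 old cells that held genes of another type, tubule included, are given beside the results they move most.

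The first comparison asked how frequent plasma cells were at each age. They made up 0.0612% of kept cells in the young library (7 of 11429, exact 95% binomial interval 0.0246 to 0.126) and 0.665% in the old library (68 of 10232, 0.516 to 0.842). Among kept cells with a UMI of Ptprc (CD45, the pan-leukocyte gene), the shares were 0.165% (0.0605 to 0.358) and 0.786% (0.578 to 1.04). B cells went the other way in number, from 394 to 180 cells, so that plasma cells formed 1.75% (0.705 to 3.56) of plasma and B cells together in the young library and 27.4% (21.97 to 33.4) in the old one. The intervals of the ages did not overlap under any of these denominators. They cover counting error only and say nothing of the spread between animals. Without the cells marked by Scrublet, 1 young plasma cell remained (0.00875%), and without cells holding genes of any other type the old share was 0.479%.

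Plasma cells of the ages differed in antibody class, with IgA leading in the young and IgG in the old library. A cell took the heavy chain constant gene holding over 50% of its heavy chain constant UMIs, and every one of the 75 cells could be assigned. In the young library 6 of 7 cells carried Igha (85.7%, 42.1 to 99.6) and 1 carried Ighg2b. The old library held 19 Igha cells (27.9%, 17.7 to 40.1), 17 Ighg1 cells (25%, 15.3 to 37.0), 14 Ighg2c cells (20.6%, 11.7 to 32.1), 11 Ighg3 cells (16.2%, 8.36 to 27.1), 5 Ighm cells (7.35%, 2.43 to 16.3) and 2 Ighg2b cells (2.94%, 0.358 to 10.2). IgG cells of any subclass were thus 44 of 68 (64.7%, 52.2 to 75.9) against 1 of 7 (14.3%, 0.361 to 57.9), and these intervals overlap. No cell was led by Ighd or Ighe, where 0 of 68 allows a share of up to 4.41%. IgM was at 0 of 7 in the young library, which allows up to 42.9%, so its absence there could not be shown at this number of cells. Under 25% immunoglobulin UMIs were held by 2 of the 5 old IgM, 1 of the 19 old IgA, 1 of the 44 old IgG and 1 of the 6 young IgA cells.

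Most cells expressed 1 class with little admixture. The leading gene held 99.97% to 100% of heavy chain constant UMIs in the 6 young Igha cells, 98.8% to 100% in the old Ighg1 cells and 95.7% to 99.9% in the old Ighg3 cells. Old Igha cells ranged from 68.0% to 100%, and the lowest had only 103 heavy chain UMIs, the rest of which were Ighm. Ighg2c cells stood apart, at 72.2% through 79.2% to 85.1%, with 19.8% of their heavy chain UMIs counted as Ighg2b. The Ighg2b gene (chr12:113302965-113307933, minus strand, mm10) and Ighg2c (chr12:113285325-113288932, minus strand) are close paralogs next to each other in the heavy chain locus. The reverse was not seen. The 2 old Ighg2b cells had 99.5% Ighg2b and 0.0948% Ighg2c UMIs, and the 1 young Ighg2b cell had 0% Ighg2c. The source of the Ighg2b part in Ighg2c cells was not tested. The subclass of those Ighg2b UMIs is thus uncertain. By leading gene the cells themselves were apart, since Ighg2b cells held at least 98.4% Ighg2b and no cell lay between the groups. Subclass names are those of the mm10 reference, and strain differences from it were not tested. IgG as a class is not touched by this.

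**Figure D1:**
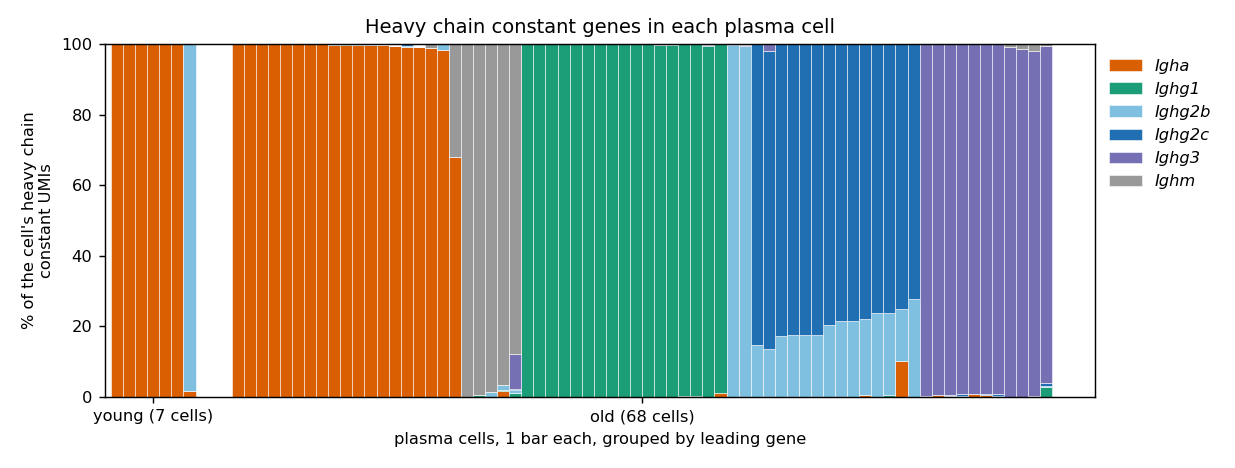
Each bar is 1 plasma cell and shows the percent of its heavy chain constant UMIs given to each constant gene, with cells grouped by leading gene within the young (7 cells) and old (68 cells) libraries. Nearly all bars are 1 colour, except the 14 Ighg2c cells, which all carry an Ighg2b part.

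Light chain use was almost uniform. Kappa led in 7 of 7 young cells and in 66 of 68 old cells (97.1%, 89.8 to 99.6). The 2 lambda cells were both old and both IgM. One of these IgM cells was unlike the rest, with 70512 UMIs, of which 1.14% were immunoglobulin, 38 Jchain and 53 Mzb1 UMIs, and UMIs of 9 of 9 cell cycle genes (Mki67, Top2a and similar). Counting cells with at least 3 of these genes, 1 of 7 young and 2 of 68 old plasma cells qualified. After thinning each cell to 2000 UMIs the numbers were 0 of 7 and 1 of 68 (1.47%, 0.0372 to 7.92), against 1 of 390 and 1 of 175 B cells.

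The heavy chain transcripts found in proximal tubule cells, which do not make antibody and were not part of the rule, gave a second view of the classes present in each preparation. In the old library Ighg1 was detected in 762 of 3368 tubule cells (22.6%), Igha in 565 (16.8%), Ighg3 in 310 (9.20%), Ighg2b in 206 (6.12%), Ighg2c in 105 (3.12%) and Ighm in 79 (2.35%). In the young library Igha was detected in 183 of 6116 tubule cells (2.99%), Ighm in 64 (1.05%), Ighg2b in 5 and Ighg3 in 1. Ighg1 and Ighg2c were at 0 of 6116, which allows up to 0.0491%. Median depths were alike, at 15316 UMIs in young and 15646.5 in old tubule cells. One old tubule cell alone held 4032 of the 4146 Ighg2c UMIs, and 988 of the 1204 Ighg2b UMIs also lay in 1 cell. For these genes the share of cells and not the sum describes the background. This view is not independent of the plasma cells, since both come from the same preparation. The part of such free RNA in the trace second classes of plasma cells was not tested.

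**Figure D2:**
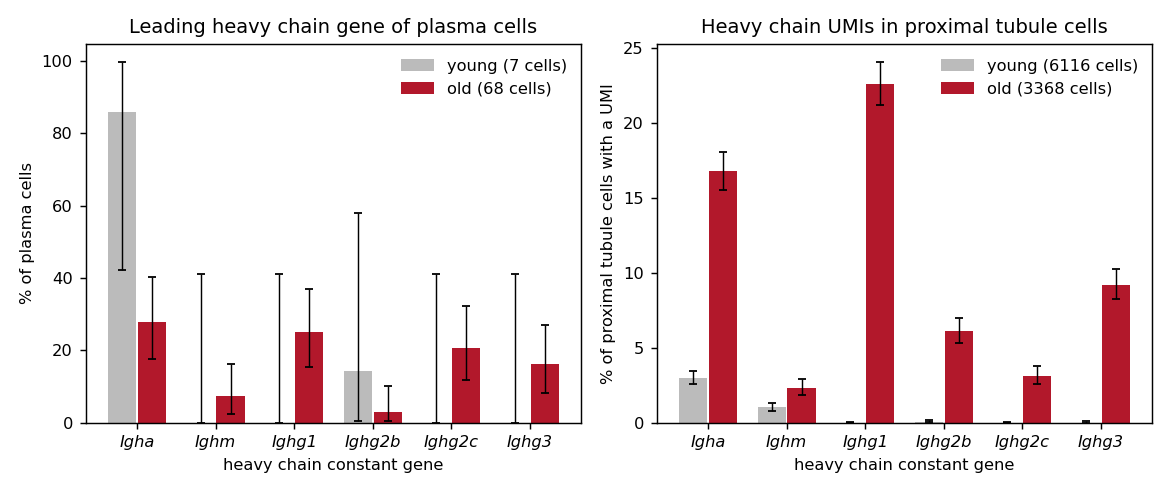
Left, percent of plasma cells led by each heavy chain constant gene (7 young, 68 old cells); right, percent of proximal tubule cells with at least 1 UMI of that gene (6116 young, 3368 old cells). Bars are shares and whiskers exact 95% binomial intervals: Igha leads among young plasma cells at 85.7%, and Ighg1 was found in 22.6% of old and 0% of young tubule cells.

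Old plasma cells were next set against the 180 B cells of the same library, to describe the program of the kidney plasma cells. Both populations were chosen by measured genes, so these ratios are a description, and the count for all genes gives the scale. The B cell rule did not leave out cells with Siglech UMIs. Among the B cells, 19 held all 1568 Jchain UMIs and 37 held all 4836 Ighg3 UMIs, and these cells were kept in the comparison. Of 3659 genes with enough UMIs (at least 100 over both groups), 345 (9.43%) were at least 2-fold higher and 882 (24.1%) at least 2-fold lower in plasma cells, with a median log2 ratio of -0.38. With immunoglobulin genes kept in the total the split was 97 and 2848 genes, since the immunoglobulin UMIs of plasma cells then enter the total.

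Genes that define plasma cells were mostly higher. Of 18 measurable genes on a list of 25 plasma cell genes, 14 were at least 2-fold higher and 1 lower, with a median log2 ratio of 3.28. Tnfrsf17, which encodes BCMA, the survival receptor for APRIL and BAFF, stood at 189 CPM in plasma and 0.614 CPM in B cells (199 and 1 UMIs, log2 ratio 8.26, exact interval 5.77 to 13.57). Derl3, part of the machinery that removes misfolded proteins from the ER, stood at 662 and 7.98 CPM (6.37, 5.59 to 7.29), and Fkbp11, a prolyl isomerase of secretory cells, at 278 and 4.30 CPM (6.01, 4.95 to 7.34). Xbp1 was at a ratio of 4.98, Prdm1 at 4.24 and Irf4 at 1.36. The exception was Cd38, with 9 UMIs in plasma and 146 in B cells (-3.39). Jchain, which the rule used, had a ratio of 6.67, and Sdc1 of 6.35. Outside the lists, Chst1 (a sulfotransferase, 6.02), Spon1 (a matrix protein, 5.78), Oosp1 (5.66) and Trf (transferrin, 5.37) were among the 10 highest.

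B cell genes were lower as a group. On a list of 21, 19 were measurable, 16 were at least 2-fold lower and 0 higher, with a median of -3.25. Pax5, the factor that maintains B cell identity, had 6 UMIs in 2 plasma cells and 368 UMIs in 136 B cells (-5.31, -6.77 to -4.18), and Bach2, which holds B cells back from plasma cell fate, had 3 and 182 UMIs (-5.30). Ms4a1, which helped to choose the B cells, was at -3.82. Genes of antigen presentation were spread, from H2-Aa at -1.96 to Cd74, the invariant chain, at -0.26. Fcmr, the receptor for IgM, was at -5.14.

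The folding machinery of the ER was higher almost throughout. On a list of 26 ER folding and stress genes 24 were measurable, 18 were at least 2-fold higher and 0 lower, with a median of 2.15. Creld2, a stress-inducible ER protein (1158 and 67 UMIs, 4.74), Edem2 (4.31) and Edem1 (4.09), which direct misfolded glycoproteins to disposal, Pdia4, a disulfide isomerase (3.83), and the chaperone Hsp90b1 (GRP94, 3.39) led it. Hspa5, the chaperone BiP, was at 2.03. The stress factors Atf4 (0.00) and Ddit3 (CHOP, -0.82) were not past 2-fold in either direction. Of 24 genes for translocation and vesicle transport, 23 were measurable, 19 were at least 2-fold higher and 0 lower, with a median of 1.92. Among them were the cargo receptor Lman1 (4.22), Ssr4 of the translocon (3.99) and the signal peptidase subunit Sec11c (3.37). With immunoglobulin in the total the medians of these lists were 0.84 and 0.62, still above that of all genes.

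Because the ER genes stood high together, their promoters were read for the ER stress response element, a motif bound by ATF6 with NF-Y, in RefSeq sequence (GRCm38.p6) covering 250 bases before each start site. The motif searched was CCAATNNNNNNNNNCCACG on either strand. It was present in 35 of 27025 genes (0.130%) and in 8 of the 22 ER folding and stress genes with a promoter in the table (36.4%), namely Hspa5, Hsp90b1, Pdia6, Calr, Canx, Creld2, Dnajc3 and Syvn1. It was present in 1 of 22 plasma cell genes, Derl3, and in 0 of 16 translocation, 0 of 10 homing and 0 of 13 B cell genes with a promoter in the table. A match is a description of these letters and not evidence of binding. The element and the list were each chosen for ER stress, so their overlap is not a result of these data. Canx holds a match and had a ratio of 0.17, while Edem2 and Edem1, at over 4, are not among the matches. The promoters of 4 of these genes are shown, Hspa5 and Creld2 because they return in the comparison of ages and Hsp90b1 and Derl3 for their ratios to B cells, each 5′ to 3′ along its gene, with capitals marking the outer parts of the motif:
Hspa5, chr2:34771840-34772089, plus strand: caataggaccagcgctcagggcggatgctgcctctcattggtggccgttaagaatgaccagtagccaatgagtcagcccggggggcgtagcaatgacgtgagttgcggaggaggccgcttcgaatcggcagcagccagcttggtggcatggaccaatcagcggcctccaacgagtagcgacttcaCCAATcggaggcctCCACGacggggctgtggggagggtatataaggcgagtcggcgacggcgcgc
Creld2, chr15:88819396-88819645, plus strand: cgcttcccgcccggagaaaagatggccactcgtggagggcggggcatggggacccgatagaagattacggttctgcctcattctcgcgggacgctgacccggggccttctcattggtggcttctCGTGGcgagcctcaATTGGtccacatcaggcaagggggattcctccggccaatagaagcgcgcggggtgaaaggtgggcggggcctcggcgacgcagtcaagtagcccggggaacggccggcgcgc
Derl3, chr10:75893148-75893397, plus strand: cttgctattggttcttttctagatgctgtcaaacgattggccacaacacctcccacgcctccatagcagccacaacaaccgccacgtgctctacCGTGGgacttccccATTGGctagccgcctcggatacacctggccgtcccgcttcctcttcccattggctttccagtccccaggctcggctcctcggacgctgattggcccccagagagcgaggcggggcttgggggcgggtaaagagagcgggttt
Hsp90b1, chr10:86705445-86705694, minus strand: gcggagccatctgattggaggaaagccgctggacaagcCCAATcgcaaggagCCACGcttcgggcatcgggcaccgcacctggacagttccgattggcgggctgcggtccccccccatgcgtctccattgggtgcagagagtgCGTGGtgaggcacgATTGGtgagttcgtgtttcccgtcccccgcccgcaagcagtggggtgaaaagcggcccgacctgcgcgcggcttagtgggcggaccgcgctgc
In Hspa5 the motif lies on the gene's own strand and starts 65 bases before the start site. In Creld2 and Derl3 it lies on the opposite strand, 126 and 156 bases before it, and Hsp90b1 carries 2 copies, 1 on each strand.

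Receptors that hold cells in place or let them recirculate differed gene by gene. Of 19 homing and adhesion genes 16 were measurable, 1 was at least 2-fold higher and 6 lower, with a median of -0.68. Ccr10, a receptor for chemokines of skin and mucosal epithelium, had 146 UMIs in 31 plasma cells and 0 in B cells. Against a floor of 3 UMIs over the B cells it was 75.2-fold higher (6.23 on the log2 scale, exact lower limit 5.92). The lymph node receptor Ccr7 had 1 and 530 UMIs (-8.42, -13.73 to -5.94), while Cxcr5, the follicle receptor, had a ratio of -4.99 and the exit receptor S1pr1 -3.88. The integrin chains Itgb7 (0.06) and Itga4 (-0.87) were within 2-fold. Of 15 interferon-stimulated genes 6 were measurable, 3 higher and 1 lower, with a median of 0.58 that turned to -0.73 with immunoglobulin in the total. Of 12 survival genes 7 were measurable with 1 lower, of 15 cytokine and checkpoint genes 3 with 2 lower (Ltb -2.89, Tgfb1 -2.65), and of 10 genes of age-associated B cells 2, both lower (Cd86 -4.27, Zeb2 -2.55). Of 15 cell cycle genes 4 were measurable, with 1 higher.

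**Figure D3:**
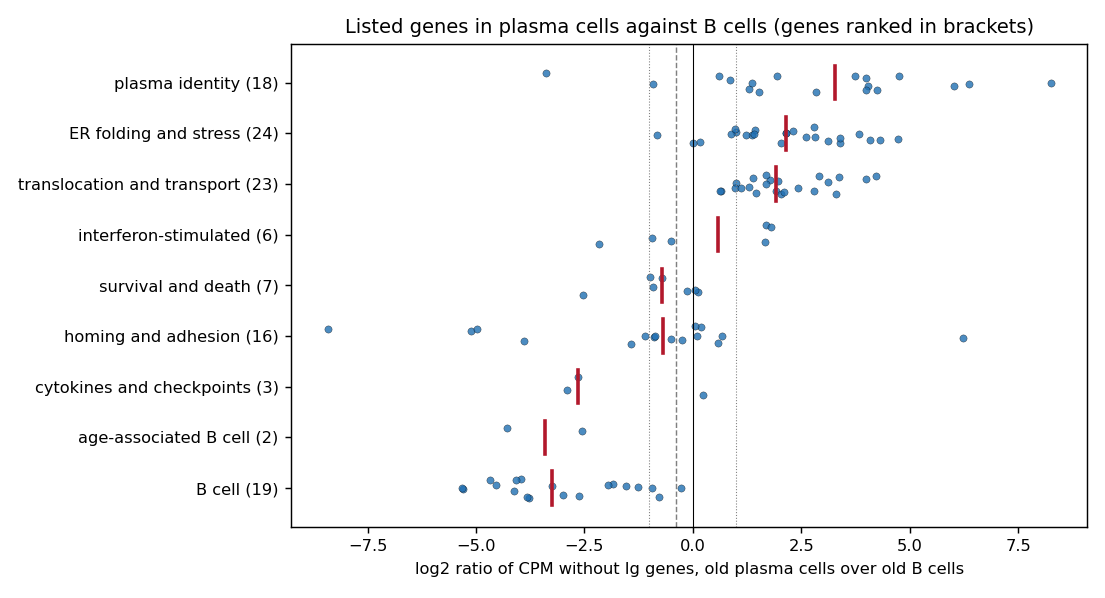
Each point is 1 listed gene, placed by the log2 ratio of its CPM in old plasma cells (68) over old B cells (180), with red bars at list medians, the dashed line at the median of all 3659 genes (-0.38) and dotted lines at 2-fold. Plasma identity, ER folding and translocation lists lie mostly above 2-fold, the B cell list below.

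IgA and IgG plasma cells of the old kidneys came from 1 preparation, so they could be compared without the difference in library. Of 1123 genes measurable over the 19 IgA and 44 IgG cells, 39 (3.47%) were at least 2-fold higher and 74 (6.59%) lower in IgA cells, and with immunoglobulin in the total the split was 55 and 42. The 39 genes became 16 without cells holding tubule genes and 9 without cells holding genes of any other type. The classes share the library, but no cell could be assigned to an animal of the pool, so class and animal cannot be told apart. Cells of 1 library are not replicates, and the exact intervals below again cover counting error.

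Ccr10 had the highest ratio of the named genes in IgA cells. Its level per cell ran from 0 through a median of 369 to 1744 CPM in the 19 IgA cells and from 0 through 0 to 316 CPM in the 44 IgG cells. A UMI was found in 17 of 19 IgA and 13 of 44 IgG cells, and after thinning to 1000 UMIs in 42.1% of 19 and 2.44% of 41 cells. Summed, Ccr10 (chr11:101172997-101175443, minus strand) stood at 453 CPM in IgA and 36.8 CPM in IgG cells, a log2 ratio of 3.62 (2.99 to 4.30). The IgG subclasses were alike and low, with Ccr10 at 33.6 CPM in Ighg1, 39.1 in Ighg2c and 43.4 in Ighg3 cells.

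Tnfrsf17, the BCMA gene (chr16:11313812-11320074, plus strand), followed. It ran from 0 through 405 to 2529 CPM in IgA cells and from 0 through 0 to 571 CPM in IgG cells, so the groups overlapped but the medians were apart. Summed, Tnfrsf17 stood at 502 and 67.7 CPM (2.89, 2.40 to 3.41), with UMIs in 14 of 19 and 21 of 44 cells. By subclass it was at 33.6 CPM in Ighg1, 67.5 in Ighg2c and 130 in Ighg3 cells. Txndc5, a disulfide isomerase of the ER, ran from 581 through 3859 to 11990 CPM in IgA cells and from 0 through 847 to 8518 CPM in IgG cells (summed 4305 and 1364 CPM, 1.66, 1.53 to 1.78). Also among the 10 highest were Msn (1.67) and Actg1 (1.58) of the cell cortex, Btg1 (1.42) and Cebpb (1.33), but without cells holding genes of another type Msn was at -0.70, Actg1 at 0.79, Btg1 at -0.60 and Cebpb at 0.40. Ccr10 (3.46), Tnfrsf17 (2.89) and Txndc5 (1.93) stayed above 2-fold without those cells. Jchain, although used by the rule, was 0.98 higher in IgA and Mzb1 0.91 lower on the log2 scale.

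Among the genes higher in IgG cells was Ly6c2, which encodes the surface protein Ly6C. It ran from 291 through 9975 to 58701 CPM in IgG cells and from 0 through 747 to 10715 CPM in IgA cells. Summed, Ly6c2 stood at 10402 and 2079 CPM, a ratio of IgA over IgG of -2.32 (-2.45 to -2.20), which was -3.50 without cells holding tubule genes. Its level was 8941 CPM in Ighg1, 11224 in Ighg2c and 8213 in Ighg3 cells, all above IgA. Creld2 ran from 0 through 322 to 1321 CPM in IgA and from 0 through 1039 to 6484 CPM in IgG cells (summed 396 and 1480 CPM, -1.90, -2.21 to -1.61). Igtp, an interferon-inducible GTPase, was at -2.55, Spon1 at -2.46 (-0.995 without cells holding genes of another type), Chst1 at -2.01, Cd52, a small surface glycoprotein, at -1.81, and H2-Eb1, an MHC class II chain, at -1.65.

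The lists were counted in the same way. Of 23 measurable ER folding and stress genes, 6 were at least 2-fold lower in IgA cells and 0 higher, with a median of -0.72 against -0.14 for all genes. Hsp90b1 (-1.15), Sdf2l1 (-1.20) and Manf (-1.11) were among the 6, and Txndc5, counted in the plasma cell list, ran opposite to them. The 20 translocation genes were all within 2-fold, with a median of -0.35. Of 7 measurable B cell genes 5 were lower in IgA cells (median -1.11), of 16 plasma cell genes 2 were higher and 2 lower (-0.19), of 9 homing genes 1 was higher (0.81) and of 4 interferon-stimulated genes 1 was lower.

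Cxcr3, the receptor for interferon-induced chemokines, had too few UMIs for these ratios but was split by class. It had 0 UMIs in the 19 IgA cells and 75 UMIs in 16 of 44 IgG cells. Against a floor of 3 UMIs over the IgA cells, Cxcr3 was 9.76-fold higher in IgG cells. On the log2 scale IgA over IgG was -3.29, with an exact upper limit of -2.95. Of the 75 Cxcr3 UMIs, 56 lay in 9 of the 14 Ighg2c cells. After thinning to 1000 UMIs, Cxcr3 was found in 7.32% of 41 IgG cells and in 0% of 19 IgA cells. Young plasma cells had 0 Cxcr3 UMIs. Cxcr3 was named after its values had been seen.

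**Figure D4:**
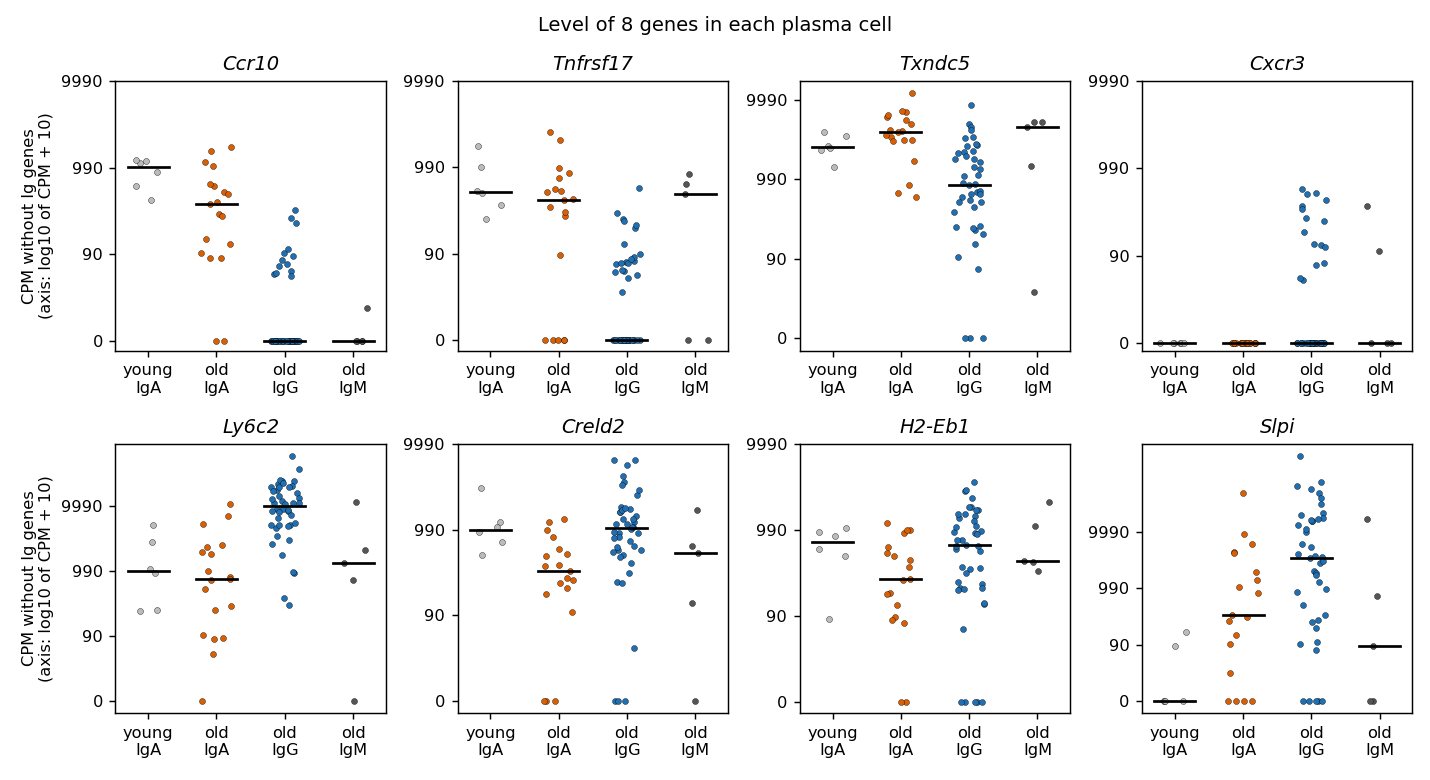
CPM without immunoglobulin genes (log axis of CPM + 10) of 8 genes in each plasma cell, by class, for 6 young IgA, 19 old IgA, 44 old IgG and 5 old IgM cells, with black lines at the medians. Ccr10 and Tnfrsf17 sit higher in IgA cells, Ly6c2 and Creld2 higher in old IgG cells, and Cxcr3 is at 0 in every IgA cell.

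Old and young plasma cells were then compared across all 75 cells. Of 1378 measurable genes, 180 (13.1%) were at least 2-fold higher and 65 (4.72%) lower in the old cells, with a median of 0.04, and with immunoglobulin in the total the split was 140 and 117. The minimum for ranking was summed over both groups, which held 1054784 old and 74479 young UMIs outside immunoglobulin genes. Genes thus entered mainly through old UMIs, and those near the minimum had few young UMIs to expect. The part of this imbalance in the split was not tested, so the split is not read as a direction of change. Since 6 of 7 young cells were IgA and 44 of 68 old cells IgG, each gene is given also over IgA cells alone, 19 old and 6 young. There 371 genes were measurable, 40 (10.8%) at least 2-fold higher and 35 (9.43%) lower. The comparisons share their IgA cells, so the IgA values are not independent of those over all cells.

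Slpi, a secreted inhibitor of neutrophil proteases (chr2:164354070-164389095, minus strand), had the highest ratio of the named genes. In 68 old plasma cells it ran from 0 through 1818 to 224026 CPM, and in the 7 young cells 5 had 0 UMIs and the others 1 and 2. Summed, Slpi was at 10700 CPM (11286 UMIs) and 40.3 CPM (3 UMIs), a ratio of 8.05 (6.51 to 10.33) over all cells. In IgA cells alone it was 7.03, but 1 of the 19 old IgA cells held 1231 of their 1621 Slpi UMIs, and the ratio was 5.11 without it and 5.86 without cells holding genes of another type. The level also differed by IgG subclass, with Slpi at 25049 CPM in Ighg1, 10079 in Ighg2c and 1100 in Ighg3 cells. Other cells of the old library shared the direction at lower levels, with a Slpi ratio of 4.64 in B cells and 5.95 in proximal tubule cells, though 0.25 in plasmacytoid dendritic cells. Jchain was also higher in these old cells, at 11.13 in B, 5.97 in tubule and 6.86 in plasmacytoid dendritic cells. Its UMIs were not spread alike. The 1568 UMIs of old B cells lay in 19 of 180 cells and the 1401 of old plasmacytoid dendritic cells in 13 of 61. The 1549 of old tubule cells lay in 339 of 3368. Old tubule cells held Slpi at 4.43 CPM beside 24.7 CPM of Jchain. The part of free plasma cell RNA in these Slpi ratios was not tested.

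Jun, a subunit of the AP-1 factor made within minutes of cell stress or stimulation, behaved otherwise. The young cells had 0, 1, 3, 3, 4, 5 and 7 Jun UMIs, and summed Jun stood at 4117 CPM in old and 309 CPM in young cells (3.74, 3.15 to 4.40). In IgA cells alone the Jun ratio was 3.86, with Junb at 3.21, Dusp1 at 2.68, Fos at 1.53 and Fosb at 1.49. Without cells holding genes of another type, Jun was at 3.71, Junb at 2.49, Dusp1 at 1.72, Fos at 1.503 and Fosb at 1.14 in IgA cells. In B cells Jun was at -0.23, in tubule cells at -0.31 and in plasmacytoid dendritic cells at 0.08, so the difference was not seen in those classes of the same libraries. Dusp5, a phosphatase of the same early response, was at 4.42 on 303 and 1 UMIs (1.93 to 9.73). Btg1 (4.11), Adk (3.50), Fgl2 (3.40), Oosp1 (3.38), Mrpl52 (3.22), Bhlhe41 (3.08) and Golgb1 (3.02) also rested on 1 or 2 young UMIs, and with the 1 young cell left after Scrublet, Btg1, Adk, Fgl2, Mrpl52, Bhlhe41 and Golgb1 turned negative.

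Ly6a, B2m and Igtp were higher in the old library in several cell classes. Ly6a (Sca-1), an interferon-inducible surface protein, had a ratio of 2.59 in plasma cells (3.33 without cells holding genes of another type), 1.74 in B cells, 1.16 in tubule cells and 1.24 in plasmacytoid dendritic cells. B2m, the light chain of MHC class I, was at 1.63 in plasma (2.22 without such cells), 1.61 in B and 2.94 in tubule cells. Igtp had 268 UMIs in old and 0 in young plasma cells. Against a floor of 3 young UMIs it was 6.31-fold higher over all cells (2.66 on the log2 scale, exact lower limit 2.35). In IgA cells alone Igtp was 1.29-fold higher (0.36, exact lower limit -0.10), which allows no difference. Its ratio was 3.24 on the log2 scale in B and 5.12 in tubule cells. Ly6c2 was at 1.86 over all plasma cells and at 0.23 (-0.06 to 0.54) in IgA cells alone. These values rested on few cells, since 132 of the 150 young Ly6c2 UMIs lay in the 4 young cells holding genes of another type, and without such cells the ratios were 3.78 and 1.11. In IgA cells the Ly6c2 ratio was -0.59 without the old cell and 1.23 without the young cell with most of its UMIs. Of 5 measurable interferon-stimulated genes 2 were higher and 1 lower, with a median of 0.55.

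No gene could be named at the young end by the rule, which asked for UMIs in at least 10 cells, so genes in at least 5 young cells were named after the data had been seen. Ctla4, an inhibitory receptor best known from T cells, had 0, 0, 3, 6, 9, 11 and 17 UMIs in the young cells, or 618 CPM, and 57 UMIs in 12 of 68 old cells, or 54.0 CPM (-3.51, -4.10 to -2.92), and was at -2.48 in IgA cells alone. The 4 young cells holding genes of another type had 40 of the 46 young Ctla4 UMIs, and without such cells the ratio was -1.68 over all and -0.64 in IgA cells. T cell genes had 0 UMIs in these young cells, but the rule had left out cells with a UMI of Cd3d or Cd3e. This absence was thus partly set by the rule and cannot show whether the Ctla4 UMIs came from plasma cells. Ctla4 stood at 1.29 CPM in young and 4.91 CPM in old B cells. Ccr10 had 1, 5, 5, 8, 10, 14 and 15 UMIs in the young cells and a ratio of -2.49 (-2.94 to -2.03), which was -0.98 (-1.44 to -0.50) in IgA cells, and -3.30 and -1.07 without cells holding genes of another type. Itgb7, the integrin chain of gut homing, had 1, 3, 3, 4, 5, 10 and 14 UMIs and was at -2.40, and at -1.33 (-2.06 to -0.56) in IgA cells. Of its 40 young UMIs 30 lay in the same 4 young cells, and without such cells Itgb7 was at -1.46 over all and -0.75 in IgA cells. Its partner Itga4 was at -2.05, but 42 of its 43 young UMIs lay in the 4 young cells that held genes of another type, and the ratio was -0.47 (-1.31 to 0.45) in IgA cells and 2.42 without cells holding such genes. Tnfrsf17 was at -1.65, and at -0.35 (-0.87 to 0.19) in IgA cells. S100a10 (-2.70), Ifi27l2a (-2.69), Atp1b1 (-2.51), Vim (-2.25), Sept11 (-2.06) and Pycard (-1.96) completed the 10, and without cells holding genes of another type S100a10 was at -0.72, Pycard at -1.01, Vim at 0.43 and Ifi27l2a at 1.001. With the 1 young cell left after Scrublet, S100a10 turned to 1.44 and Ifi27l2a to 0.25.

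Several ER genes stood lower in old than in young IgA cells. Hspa5 had 15, 15, 24, 43, 44, 93 and 180 UMIs in the 7 young cells and a ratio of -1.36 over all cells, and in IgA cells it stood at 1426 CPM in old and 5805 CPM in young (-2.03, -2.24 to -1.81). Without the young cell with most Hspa5 UMIs these ratios were -0.80 and -1.38. Creld2 was at -0.06 over all cells but at -1.73 (-2.16 to -1.30) in IgA cells. The young IgA cell with 180 of the 414 young Hspa5 UMIs also held 38 of the 85 young Creld2 UMIs. The ER medians below were not recomputed without that cell. Of 14 measurable ER folding and stress genes in IgA cells 5 were lower and 0 higher, with a median of -0.95 against -0.13 for all genes, and of 13 translocation genes 3 were lower (-0.58). Over all plasma cells 2 of 23 ER genes and 3 of 20 translocation genes were lower and 0 higher, with medians of -0.25 and -0.50. The ER median over all cells changed sign, to 0.15, without cells holding tubule genes, which leaves 4 young cells. Of 10 homing genes 1 was higher and 5 lower (-0.66), and of 16 plasma cell genes 3 were higher and 2 lower (-0.05).

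**Figure D5:**
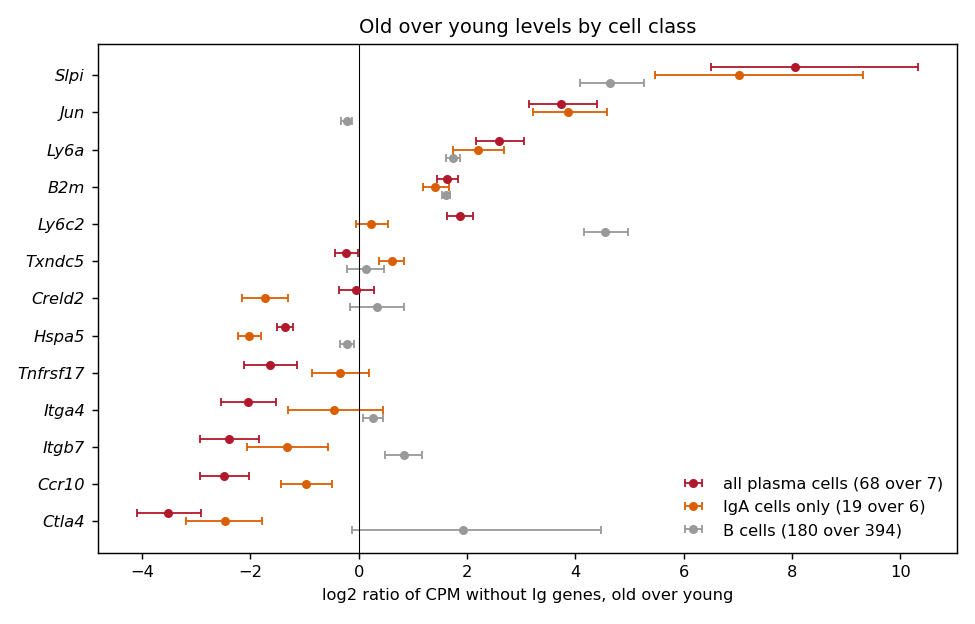
Log2 ratio of CPM without immunoglobulin genes, old over young, for 13 genes, with points for all plasma cells (68 over 7), IgA plasma cells (19 over 6) and B cells (180 over 394) and whiskers for exact 95% intervals of counting error. Jun lies at 3.74 over all and 3.86 over IgA cells; the IgA points of Slpi and Ly6c2 rest on single cells (Slpi 5.11 without 1 cell, Ly6c2 from -0.59 to 1.23).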

How the data were processed

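scRNA-seq libraries of 1 old and 1 young MRL-lpr kidney pool were used. Per the labels and the matrix header, the authors aligned 10x 3′ reads to mm10 and deposited raw UMI counts per gene and barcode made with Cell Ranger 3.1.0, for 31053 genes and without normalization. Cells under 200 genes or over 20% mitochondrial UMIs were removed, the limits the study used. CPM was computed from summed counts after leaving out 392 immunoglobulin genes. Genes were ranked with at least 100 UMIs over both groups, and a gene was counted past 2-fold. The genes named were, per comparison, the 10 highest and 10 lowest ranked genes with UMIs in at least 10 cells of the higher group and no cell holding over 25% of them, plus members of fixed lists. The members and lists were chosen with earlier results of these data known. The comparisons of IgA with IgG cells, of IgA cells alone and of plasma with B cells, and the rule for genes of at least 5 young cells, were added after seeing the data. Ratios, levels and shares have exact binomial or Poisson 95% intervals, and 0 counts were given a floor of 3. These cover counting error only. Depth set their width, since the 7 young plasma cells held 74479 and the 68 old ones 1054784 UMIs outside immunoglobulin genes. Scrublet in Scanpy 1.11.5 called 328 young (2.87%) and 246 old (2.40%) kept cells, which were retained. Tubule cells held at least 5 of 8 tubule genes and plasmacytoid dendritic cells at least 3 Siglech UMIs. Gene positions are from GENCODE on mm10, and Tent5c alone of the listed symbols had no row of its own. Alternatives covered doublets, cells with genes of other types, thresholds, immunoglobulin in the total, per-cell means and, added after seeing the data, leaving out the cell with most UMIs of a gene. Scripts were tested on simulated data, with Python 3.11.15, NumPy 2.4.6, SciPy 1.17.1, pandas 2.3.3 and Matplotlib 3.10.9. Some listed genes are not reported here by name.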

Additional observations from a re-analysis of the deposited data

How the results depend on the processing

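No paired analysis was possible because each age had 1 library. Most values moved by less than their counting interval, and the cause of the moves below was not tested beyond the loss of cells. Leaving out Scrublet doublets left 1 young cell, which set the young share to 0.00875%, the young IgA, IgG and cycling shares to 100%, 0% and 0%, the count of genes lower in old cells to 212, the B cell and ER medians to 0.25 and 0.56, and gave Btg1 -0.27, Adk -0.69, Fgl2 -0.84, Mrpl52 -0.96, Bhlhe41 -1.11, Golgb1 -1.20, S100a10 1.44 and Ifi27l2a 0.25. Leaving out cells with tubule genes gave an old share of 0.508%, young IgA and IgG of 100% and 0%, 32 genes lower in old cells, medians of 0.69 (B cell), 0.15 (ER) and 1.33 (interferon), and 16 genes higher in IgA than IgG. Leaving out cells with genes of any other type gave 0.479%, 100% and 0%, 111 higher and 24 lower genes, medians of 0.79, 0.21 and 1.12, Vim 0.43, Itga4 2.42 and Ifi27l2a 1.001 (2.49 in IgA cells, and 0.40 there without the young cell with most of its UMIs), Msn -0.70 and Btg1 -0.60 in IgA over IgG, and 9 genes higher in IgA than IgG. The young share of Ptprc cells was 0.165%. Over IgA cells alone 40 genes were higher and 35 lower, with medians of -0.83 (B cell) and -0.95 (ER). Cells with Y-linked UMIs gave -1.85 (homing) and 1.27 (interferon). With minima of 50 and 200 UMIs, 375 and 67 genes were higher and 161 and 25 lower in old cells. Thinning to 1000 UMIs left 0% of old cells cycling. An 80% limit for variable genes left 0 shared pairs and 4 assigned cells. Immunoglobulin in the total gave 117 genes lower in old cells, 42 lower in IgA than IgG, and 97 higher and 2848 lower in plasma than B cells, where the medians were 1.98 (plasma identity), -4.56 (B cell), 0.84 (ER), 0.62 (translocation), -1.99 (homing), -2.03 (survival) and -0.73 (interferon). Without tubule-gene cells and doublets these were 2.51 (plasma identity), 2.47 (ER) and 1.54 (interferon), and with per-cell means -3.99 (B cell) and -0.13 (homing).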

Other observations

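Variable genes gave a limited view of clonality, since 3′ libraries read them sparsely (a median of 17 heavy V UMIs beside 4521.5 heavy constant UMIs per old cell). A leading heavy V gene, with over 50% of at least 5 V UMIs, was assigned in 4 of 7 young cells, all different, and in 45 of 68 old cells with 26 different genes. Ighv7-3 led in 5 old cells spread over Igha, Ighg1 and Ighg3, and Ighv1-5 and Ighv2-6 led in 4 each. Both chains were assigned in 34 old cells, where 4 pairs recurred in 9 cells. All 4 pairs had Iglv1 as the light V gene, although these cells expressed the kappa constant gene. Iglv1 led in 31 old and 3 young cells, all of them kappa by constant gene, so the light V assignment is uncertain and the recurring pairs cannot be read as clones.

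A few cytokine genes had UMIs in plasma cells. Il10, an anti-inflammatory cytokine, had 14 UMIs in 10 old cells, all of them IgG. Areg had 17 UMIs, all of them in 1 old cell. Ltb, a membrane cytokine of lymphocytes, had 150 UMIs in 13 old cells, with 56 of these UMIs in 1 cell. Among the old plasma cells kept, 1 IgA cell held UMIs of 5 genes of type 2 innate lymphoid cells. The study reports innate lymphoid cells as the primary source of Areg. Whether the Areg and Ltb UMIs came from plasma cells was not tested.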
